A study of Homo sapiens with 8 samples.

Results

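The 10 genes described here encode heat shock proteins of the cytosol and the mitochondria and their cofactors. They are HSPA1A, HSPA1B and HSPA8 of the HSP70 family, HSPH1, HSP90AA1, DNAJB1, HSPB1, BAG3, and the mitochondrial pair HSPD1 and HSPE1. They were chosen by name, as chaperone genes controlled by heat shock factor 1 (HSF1), and not by a measured value. Earlier results of these data were known when they were chosen. They make up 10 of the 60230 genes in the counts table. All 10 were among the 13400 genes that passed the filter on low counts and were tested.

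Chaperones hold unfolded proteins, help them to fold and pass those that cannot be folded on for degradation. HSF1 is kept inactive by chaperones, and when unfolded proteins occupy these, it assembles into trimers and binds heat shock elements, which are inverted repeats of GAA and TTC units upstream of chaperone genes. HSPA1A and HSPA1B are the stress-inducible HSP70 proteins, whereas HSPA8 is the HSP70 that most cells make without stress. HSP60 and HSP10, the products of HSPD1 and HSPE1, form the folding chamber of the mitochondrial matrix.

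All samples were HepG2 cells, a human liver cancer line, transfected to overexpress cytochrome P450 2C19 (CYP2C19) and kept under blasticidin selection, so the controls carry the enzyme as well. The control cells received 0.2% DMSO for 24 h. The other groups received compound 4 (labelled metylcresol), compound 5 (tetrabut) or compound 6 (cyclohexil), phenolic antioxidants used in plastics, for 24 h. Each compound was given at its own IC50, so the concentrations were not matched. Each molecule joins a pair of substituted phenol rings. Compounds 4 and 6 differ in the ring group beside the hydroxyl, which is tert-butyl in compound 4 and cyclohexyl in compound 6, and compound 5 carries tert-butyl groups at both of its ring positions and an ethylidene bridge. mRNA was sequenced from 2 samples in each of the 4 groups, labelled day 1 and day 2. The labels do not say whether these were separate cultures, so the p-values measure the spread between these samples, which may be technical.

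The counts of a library summed to between 9791659 and 17814595, of which the 10 heat shock genes held between 0.557% and 0.715%. Library totals were larger on day 2 than on day 1 in all 4 groups. The labels mark the day 1 libraries of DMSO and compound 4 as merged from 2 numbered parts each, without saying what these are. Levels are in CPM, the usual count per fixed library total, with totals corrected by TMM. ALB, the main liver plasma protein, had between 14370 and 20660 CPM, and CYP2C19 between 16.4 and 52.8 CPM, with no library of cells without the transgene to set beside it. PTPRC, which marks leukocytes, and COL1A2, which marks fibroblasts, had 0 counts in all 8 libraries, a count that allows up to 3 counts in each. PECAM1 and CDH5, which mark endothelium, had at most 7 and 6 counts. Of 11 hepatocyte markers 4 fell under compound 4 (9.51% of all tested genes called), namely APOA1, AFP, APOB and TF. Under compound 5 (8.30%) 2 rose, FGB by 0.53 on the log2 scale and CYP2C19, the overexpressed enzyme itself, by 1.05. CYP2C19 had 0.79 under compound 4 and 0.04 under compound 6, neither of them called. The part of this difference in the enzyme in the results was not tested. Of the markers of other cell types that passed the filter, CD68 and PDGFRB rose under compound 4 by 0.80 and 1.79 on the log2 scale and ACTA2 fell by 1.00 under compound 5, and their part in the results was not tested. In such bulk samples, fewer cells of a type and less RNA per cell cannot be told apart.

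The letters of heat shock elements were searched for upstream of the 10 genes, because this is the feature by which the genes are grouped. RefSeq promoter windows on GRCh38.p14, which run from 250 bases before the start to 50 bases after it, were at hand for all 10 genes, in 14 windows. The motifs GAANNTTC and TTCNNGAA, of 2 units each and each its own reverse complement, occurred in 8 of these windows, those of 7 genes, and in 13.5% of all 35116 windows. The motif of 3 units, GAANNTTCNNGAA and its reverse complement TTCNNGAANNTTC, which contains both 2-unit motifs, occurred in the windows of 3 genes, HSPA8, HSPD1 and HSP90AA1, and in 0.49% of all windows. The matches upstream of the start are given below from 5′ to 3′ on the strand of the gene, with the matched units in capitals and the position of the first matched base counted from the start.
HSPA8, from −230 (chr11:123062348-123062372, minus strand): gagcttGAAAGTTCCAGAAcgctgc
HSPA8, from −55 (chr11:123062173-123062197, minus strand): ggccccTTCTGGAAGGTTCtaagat
HSPD1, from −245 (chr2:197500062-197500090, minus strand): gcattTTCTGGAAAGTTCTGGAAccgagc
HSP90AA1, from −88 (chr14:102087114-102087138, minus strand): gggttcTTCCGGAAGGTTCgggagg
DNAJB1, from −47 (chr19:14518431-14518450, minus strand): gctctgGAAGCTTCcgccgg
HSPB1, from −182 (chr7:76302485-76302504, plus strand): acgagaGAAGGTTCcagatg
HSPA1A, from −106 (chr6:31815431-31815450, plus strand): accctgGAATATTCccgacc
HSPA1B, from −105 (chr6:31827627-31827646, plus strand): cccctgGAATATTCccgacc
HSPD1 held a run of 4 units, which lies between a start of HSPD1 and that of HSPE1, genes that are read in opposite directions from 1 stretch of chromosome 2. HSP90AA1 and DNAJB1 each held a further 2-unit match upstream, and the windows of HSPH1, BAG3 and HSPE1 held none of these letters. A match is a description of the sequence, and binding of HSF1 was not measured. In GENCODE 29 the stretches of HSPA8, HSPD1 and HSP90AA1 fall in untranslated exons of annotated transcripts, those of DNAJB1 in introns of DNAJB1 and of TECR on the other strand, and the remaining 3 in no gene.

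**Figure D1:**
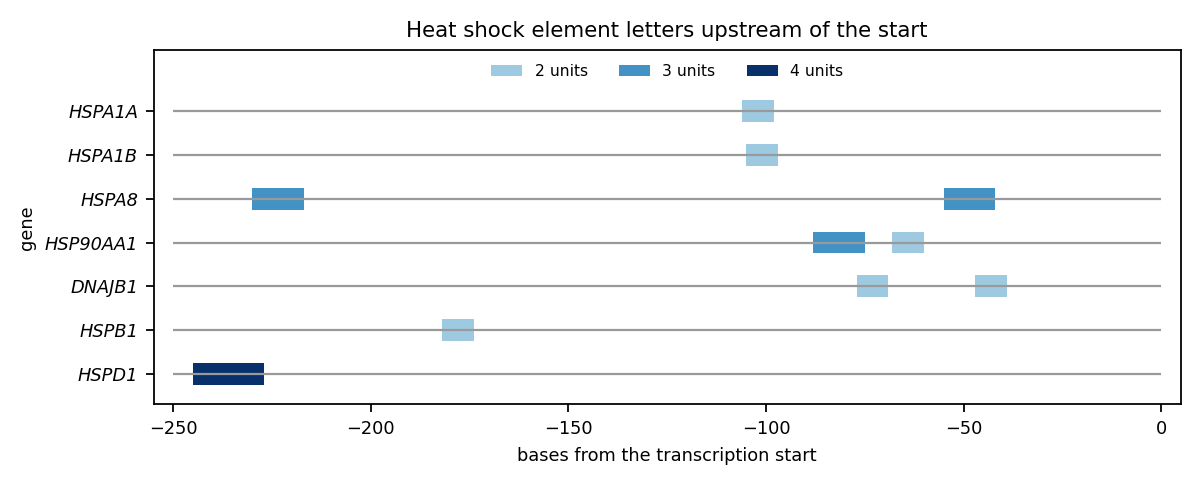
Position of the heat shock element letters before the transcription start in 7 of the 10 genes. The horizontal axis is the distance from the start in bases, each line is the 250 bases of a window, and the shade of a block gives the number of units joined in the match, from 2 to 4.

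Relative to DMSO, the fitted changes of the heat shock genes were small beside their spread. None of the 10 genes passed the threshold of an adjusted p of 0.05 in edgeR's quasi-likelihood test under compound 4 (0 of 10, with 9.51% of all tested genes called), under compound 5 (0 of 10, with 8.30%) or under compound 6 (0 of 10, with 0.575%). At an unadjusted p under 0.05, there were 1, 2 and 2 of the 10, beside 27.5%, 28.4% and 18.6% of all tested genes. With compounds 4, 5 and 6, the median log2-fold change of the 10 genes came to 0.17, 0.21 and −0.20, beside medians of 0.01, 0.00 and 0.02 over all tested genes. The 95% intervals of the single genes reached from −0.58 to 0.89 under compound 4, from −0.55 to 0.85 under compound 5 and from −0.88 to 0.40 under compound 6. Each of these bounds lies within a 2-fold change in either direction.

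**Figure D2:**
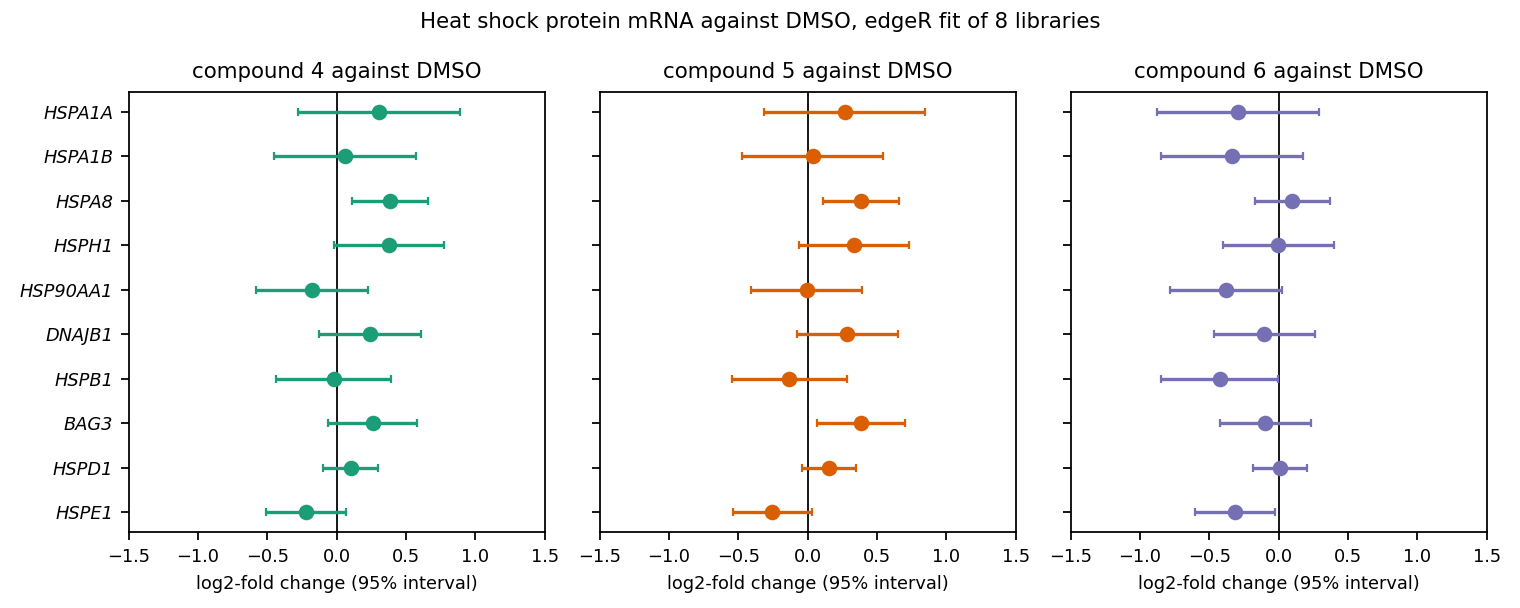
Log2-fold change of each heat shock gene against DMSO (horizontal axis) for compounds 4, 5 and 6, as points with 95% intervals from the edgeR fit of all 8 libraries. HSPA8 under compounds 4 and 5 and BAG3 under compound 5 have intervals above 0, and the intervals of HSPB1 and HSPE1 under compound 6 lie below 0, but no gene passed the threshold after adjustment over all genes.

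HSPA8, the constitutive cytosolic HSP70, came closest to the threshold. It had 1154 and 1451 CPM on days 1 and 2 with DMSO, 1654 and 1741 CPM with compound 4, 1679 and 1727 CPM with compound 5, and 1313 and 1480 CPM with compound 6. Both libraries of compounds 4 and 5 lay above both DMSO libraries, whereas those of compound 6 overlapped them. The log2-fold change was 0.38 (95% interval 0.11 to 0.65, adjusted p = 0.078) under compound 4 and 0.39 (0.11 to 0.66, adjusted p = 0.078) under compound 5, or 1.30-fold and 1.31-fold. Under compound 6 it was 0.10 (−0.17 to 0.37, adjusted p = 0.70). Within each day, HSPA8 was 1.43-fold of DMSO on day 1 and 1.20-fold on day 2 with compound 4, and 1.45-fold and 1.19-fold with compound 5. Without day 1 of DMSO, the fitted log2-fold changes were 0.22 under both compounds, and without day 2 of DMSO they were 0.56, with adjusted p-values from 0.11 to 0.39 in these fits.

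The call of HSPA8 depended on the test. With the day as a replicate block in the edgeR fit, HSPA8 passed the threshold as higher under compound 4 (adjusted p = 0.026) and compound 5 (adjusted p = 0.031), as did HSPH1 (adjusted p = 0.032 and 0.048). These were 2 of 10 genes under each, with 12.7% and 10.7% of all tested genes called, and 0 of 10 under compound 6, with 0.507%. DESeq2 without the block called HSPA8 alone under compound 4 (adjusted p = 0.048, 10.7% of all genes) and compound 5 (adjusted p = 0.043, 10.1%), and 0 of 10 under compound 6 (4.08%). DESeq2 with the block called HSPA8 and HSPH1 under compound 4 (10.8% of all genes) and compound 5 (9.90%), and 0 of 10 under compound 6 (4.13%). The direction for HSPA8 was the same in all of these, and the share of heat shock genes called was between 0 and 2 of 10 where about 1 in 10 of all genes was called.

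HSPH1 is the HSP110 protein that exchanges the nucleotide of HSP70. It had 124 and 166 CPM with DMSO, 164 and 213 CPM with compound 4, 167 and 200.4 CPM with compound 5, and 134 and 157 CPM with compound 6. In every group the day 2 library was the higher one, and day 1 of compound 4 lay just under day 2 of DMSO. Its log2-fold changes without the block were 0.38 (−0.02 to 0.77), 0.34 (−0.06 to 0.73) and −0.00 (−0.40 to 0.40), with adjusted p-values of 0.20, 0.24 and 1.00. With 1 library left out, the first ranged from 0.17 to 0.60 and the second from 0.13 to 0.56.

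The stress-inducible HSP70 genes HSPA1A and HSPA1B lie beside each other on chromosome 6. Their longest transcripts were identical over 88.7% of the alignment in GENCODE 29, and 73.7% of the 30-base words of HSPA1A also occurred in HSPA1B, so reads can be split between them. HSPA1A had 129.6 and 210.1 CPM with DMSO, 202 and 218 CPM with compound 4, 150.5 and 259 CPM with compound 5, and 128 and 150.0 CPM with compound 6. HSPA1B had 193 and 263 CPM, 223 and 252 CPM, 173 and 294 CPM, and 168 and 194 CPM, respectively. Both genes spread widely between the libraries of DMSO and of compound 5, and the libraries of each compound overlapped those of DMSO. For both genes, the libraries of compound 4 lay above those of compound 6. HSPA1A held between 40.2% and 47.5% of the reads of the pair. Counted together, the pair had log2-fold changes of 0.17 (−0.37 to 0.70) under compound 4, 0.14 (−0.40 to 0.67) under compound 5 and −0.32 (−0.85 to 0.22) under compound 6, with adjusted p-values of 0.69, 0.73 and 0.51. HSPA6, an HSP70 gene that is silent in most cells without stress, had 1 count in day 1 of compound 5 and 0 in the other 7 libraries, which allows up to 3 counts in each of these.

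DNAJB1 and BAG3 are partners of HSP70. DNAJB1, the HSP40 that brings substrates to HSP70, had 130.4 and 161 CPM with DMSO, 156 and 189 CPM with compound 4, 162 and 193 CPM with compound 5, and 119.7 and 152 CPM with compound 6. BAG3, which directs HSP70 clients to autophagy, had 22.1 and 25.0 CPM, 27.0 and 29.4 CPM, 29.2 and 32.4 CPM, and 19.8 and 24.3 CPM, respectively. The libraries of compound 5 lay above both DMSO libraries for both genes, and those of compound 4 for BAG3. The log2-fold change of BAG3 was 0.26 (−0.06 to 0.58) under compound 4, 0.39 (0.07 to 0.71, adjusted p = 0.11) under compound 5 and −0.10 (−0.42 to 0.23) under compound 6. That of DNAJB1 was 0.24, 0.29 and −0.10, with adjusted p-values of 0.38, 0.27 and 0.78.

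HSP90AA1 and HSPB1 had their lowest means under compound 6, as did HSPA1A, HSPA1B, DNAJB1, BAG3 and HSPE1. HSP90AA1, the inducible cytosolic HSP90 that matures kinases and steroid receptors, had 1108 and 1524 CPM with DMSO, 1121 and 1203 CPM with compound 4, 1085 and 1532 CPM with compound 5, and 967 and 1054 CPM with compound 6. HSPB1, the small heat shock protein HSP27 that holds unfolded proteins, had 94.6 and 84.0 CPM, 103.9 and 72.2 CPM, 71.6 and 91.1 CPM, and 72.7 and 60.4 CPM, respectively. For both genes the libraries of compound 6 lay below both DMSO libraries. The log2-fold change under compound 6 was −0.38 (−0.78 to 0.02, adjusted p = 0.29) for HSP90AA1 and −0.42 (−0.85 to −0.00, adjusted p = 0.27) for HSPB1. Under compounds 4 and 5 it was −0.18 and −0.01 for HSP90AA1, and −0.02 and −0.13 for HSPB1.

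The mitochondrial pair is HSPD1 and HSPE1, neither of which passed the test under any compound. HSPD1 (HSP60) had 2293 and 2399 CPM with DMSO, 2579 and 2448 CPM with compound 4, 2596 and 2622 CPM with compound 5, and 2375 and 2341 CPM with compound 6. HSPE1 (HSP10) had 339 and 362 CPM, 339.8 and 263 CPM, 287 and 302 CPM, and 295 and 270.3 CPM, respectively. HSPD1 was higher in both libraries of compounds 4 and 5 than in both DMSO libraries, and HSPE1 was lower in both libraries of compounds 5 and 6. HSPD1 had log2-fold changes of 0.10 (−0.10 to 0.29), 0.15 (−0.04 to 0.35) and 0.01 (−0.19 to 0.20), the narrowest intervals of the 10 genes. HSPE1 had log2-fold changes of −0.22 (−0.51 to 0.07), −0.25 (−0.54 to 0.03) and −0.31 (−0.60 to −0.02), with adjusted p-values of 0.30, 0.22 and 0.24. Across the 8 libraries their log2 CPM had a Pearson correlation of −0.07, as a description over libraries that share groups.

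The libraries of a compound and of DMSO were separate for some of the heat shock genes, as for many genes. Both libraries lay above both DMSO libraries for 3 of 10 genes under compound 4 (30.4% of all tested genes), for 5 under compound 5 (31.0%) and for 0 under compound 6 (29.3%). Both lay below for 0 under compound 4 (28.0%), 1 under compound 5 (28.5%) and 3 under compound 6 (26.0%).

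**Figure D3:**
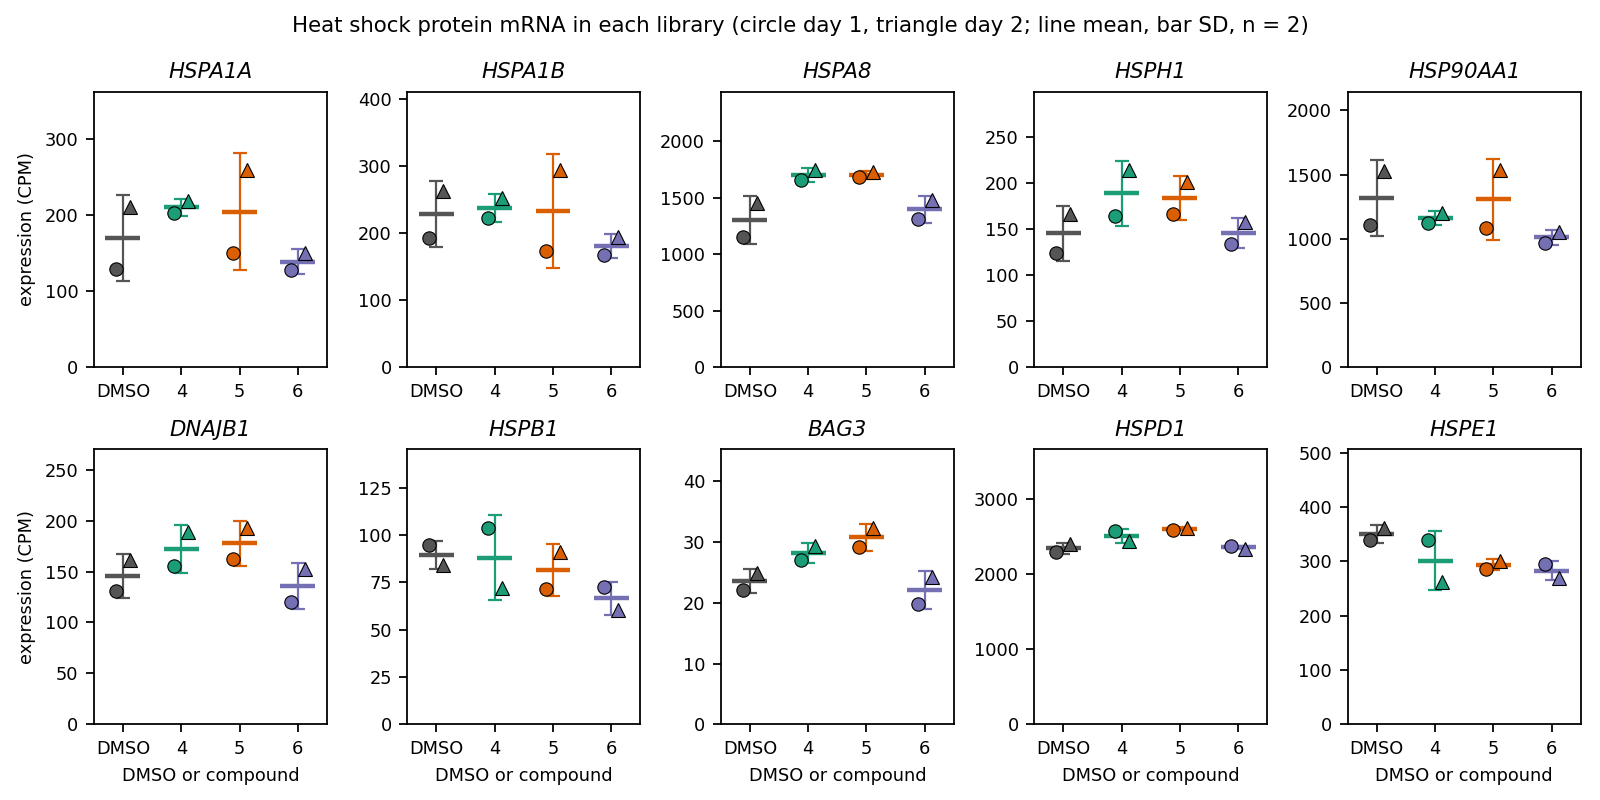
Expression of the 10 heat shock genes in each library, in CPM on axes that start at 0, for DMSO and compounds 4, 5 and 6. Circles are day 1 and triangles day 2, horizontal lines are group means and vertical bars the SD of 2 libraries. HSPA8 lies at 1654 to 1741 CPM with compounds 4 and 5, above 1154 and 1451 CPM with DMSO, while HSPA1A and HSPA1B spread as widely within DMSO and compound 5 as between groups.

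Levels between genes can be compared only per length. The length used was that of all exons of a gene in the basic set of GENCODE 29, joined, which can exceed that of the transcript made. Its effect on the order was not tested. In CPM per kilobase of exon, HSPD1 was the highest of the 10 in every group, with 913 ± 29.3 (SD, n = 2) in DMSO, followed by HSPA8 with 483 ± 77.8. HSPE1 with 340.5 ± 16.1 and HSP90AA1 with 327 ± 73.1 overlapped each other in DMSO. HSPA1B (90.4 ± 19.5), HSPB1 (84.2 ± 7.07), HSPA1A (68.4 ± 22.9) and DNAJB1 (59.5 ± 8.89) followed, each overlapping the next. HSPH1 (25.6 ± 5.25) and BAG3 (9.16 ± 0.775) were the lowest, without overlap. HSPE1 ranked above HSP90AA1 with DMSO, compound 4 and compound 6, and below it with compound 5. Their libraries overlapped in every group but compound 6.

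The compounds were also compared with each other. Compounds 4 and 5 gave log2 differences between −0.17 and 0.11 over the 10 genes, with 95% intervals that reached from −0.57 to 0.62, and 0 of 10 genes passed the threshold (0.313% of all genes) or had an unadjusted p under 0.05 (16.2%). HSPA8 differed by −0.00 (−0.28 to 0.27) between them. All 10 genes had higher estimates with compound 4 than with compound 6, which has cyclohexyl in place of tert-butyl, with a median log2 difference of 0.35 beside −0.01 over all genes. Under edgeR 0 of 10 passed the threshold (0% of all genes), and 3 had an unadjusted p under 0.05 (7.05% of all genes), namely HSPA1A with 0.60 (0.01 to 1.18), BAG3 with 0.36 (0.03 to 0.68) and HSPA8 with 0.28 (0.01 to 0.55). All 10 had lower estimates with compound 6 than with compound 5, with a median of −0.35 beside −0.00 over all genes. Again 0 of 10 passed the threshold (1.03% of all genes) and 3 had an unadjusted p under 0.05 (18.5%). The lowest adjusted p was that of BAG3, with a log2 difference of −0.48 (−0.80 to −0.16, adjusted p = 0.13), followed in unadjusted p by DNAJB1 with −0.39 (−0.75 to −0.02) and HSPA8 with −0.29 (−0.56 to −0.01). These comparisons share the libraries of compound 6, and each compound was given at its own IC50.

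DESeq2 without the block also called 0 of 10 genes in these comparisons. DESeq2 with the block called HSPA1A as higher with compound 4 than with compound 6 (adjusted p = 0.040, 0.746% of all genes) and DNAJB1 as lower with compound 6 than with compound 5 (adjusted p = 0.016, 3.36%), each 1 of 10, and 0 of 10 between compounds 4 and 5 (2.04%). Without a filter on low counts, which let 23080 genes into the edgeR test, 2 genes were called under compound 4 (10.3% of all genes), 1 under compound 5 (10.5%) and 2 under compound 6 (5.87%). The first were HSPA8 and HSPH1, the second HSPA8, and those under compound 6 were HSP90AA1 and HSPB1, as lower. In the same setting 1 gene, HSPA1A, was called between compounds 4 and 6 (1.12%), and 3 genes, HSPA1A, HSP90AA1 and DNAJB1, were called between compounds 6 and 5 (4.29%).

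Most of the heat shock genes had the higher value on the same day in every group. HSPA1A, HSPA1B, HSPA8, HSPH1, HSP90AA1, DNAJB1 and BAG3, 7 of the 10, were higher in the day 2 library than in the day 1 library of all 4 groups, compared with 10.5% of all tested genes, and 0 were lower in all 4, compared with 9.84%. For HSPA1A the log2 difference between the days was 0.70 in DMSO, 0.11 with compound 4, 0.78 with compound 5 and 0.23 with compound 6. For DNAJB1 it was 0.31, 0.28, 0.25 and 0.34, beside log2-fold changes of 0.24, 0.29 and −0.10 under the compounds. HSPD1 differed by no more than 0.08 in either direction, and HSPB1 and HSPE1 changed sign between groups.

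In the edgeR fit with the block, the difference between the days was 0.46 (0.19 to 0.72) for HSPA1A, 0.40 (0.17 to 0.63) for HSPA1B, 0.33 (0.18 to 0.47) for HSPH1, 0.30 (0.11 to 0.48) for HSP90AA1 and 0.30 (0.16 to 0.43) for DNAJB1. It passed the threshold for 0 of 10 genes (0.157% of all genes), with 6 of 10 at an unadjusted p under 0.05 (11.1% of all genes) and a lowest adjusted p of 0.14. DESeq2 with the block called 4 of 10 as higher on day 2 (0.858% of all genes), HSPA1A, HSPA1B, HSPH1 and DNAJB1, with adjusted p-values between 0.012 and 0.027. Without a filter, edgeR with the block called 4 (0.758%), with HSP90AA1 in place of DNAJB1. The totals of the libraries moved with the day as well, from 9791659 to 11444500 in DMSO, from 10772819 to 13042436 with compound 4, from 12863644 to 17814595 with compound 5 and from 10112250 to 10368600 with compound 6, and their part in the result was not tested. This comparison was chosen after the values were seen.

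**Figure D4:**
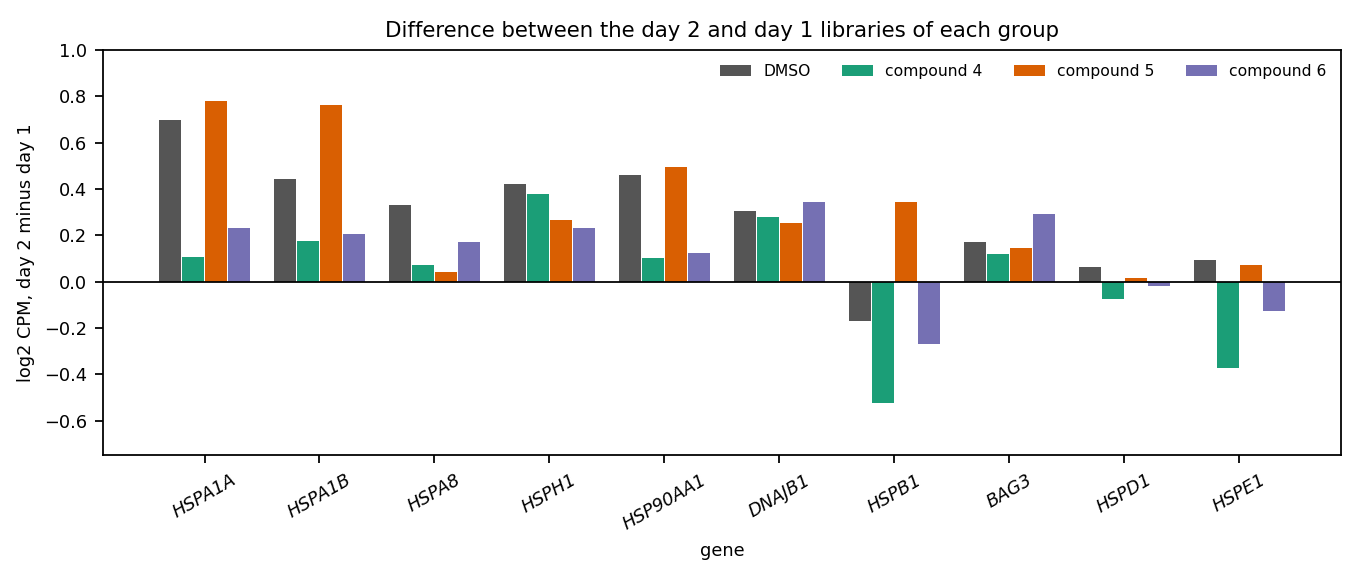
Difference in log2 CPM between the day 2 and the day 1 library of each group (vertical axis) for the 10 heat shock genes, with 1 bar per group and no error, since each bar is 1 pair of libraries. The bars of HSPA1A, HSPA1B, HSPA8, HSPH1, HSP90AA1, DNAJB1 and BAG3 lie above 0 in all 4 groups, while those of HSPB1, HSPD1 and HSPE1 take both signs.

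Within a day, the median log2 difference of the 10 genes from DMSO was 0.23 on day 1 and 0.04 on day 2 with compound 4, 0.20 and 0.21 with compound 5, and −0.14 and −0.25 with compound 6. HSPA1A had the largest gap between the days under compound 4, with 0.64 on day 1 and 0.05 on day 2, and its DMSO library of day 1 was its lowest but for day 1 of compound 6. These values have no test.

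Other genes of the chaperone network were read from lists written by hand, with earlier results of these data known. Their counts stand beside 9.51%, 8.30% and 0.575% of all tested genes called under compounds 4, 5 and 6. Of 28 tested genes in the list of other cytosolic chaperones and co-chaperones, 1 rose under compounds 4 and 5 and 0 changed under compound 6. It was HSPA13, an HSP70 relative found in microsomes, with log2-fold changes of 0.84 and 1.19 (adjusted p = 0.029 and 0.011) and 0.48 under compound 6 (adjusted p = 0.24). As HSPA13 is not cytosolic, no cytosolic gene of the list passed the threshold in this fit. The medians of this list were 0.03, 0.12 and −0.06. HSP90AB1, the constitutive partner of HSP90AA1, had values of 0.11, 0.17 and 0.05. The lowest genes of the list were HSPA14 under compound 4 (−0.43), HSPA4L under compound 5 (−0.46) and DNAJA1, an HSP40, under compound 6 (−0.39), none past the threshold. HSPA13 no longer passed under compound 4 without day 1 or day 2 of DMSO or day 2 of compound 4 (0 called), nor did any gene under compound 5 without day 1 or day 2 of DMSO or day 1 of compound 5 (0 called), while 2 were called without its day 2.

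Of the other small heat shock proteins, 1 of 9 passed the filter. CRYAA, the α-crystallin known from the lens, had 53.6 and 38.3 CPM with DMSO, 90.4 and 79.4 CPM with compound 4, 85.5 and 78.9 CPM with compound 5, and 58.4 and 56.8 CPM with compound 6. It rose under compounds 4 and 5, with log2-fold changes of 0.89 (0.54 to 1.24, adjusted p = 0.011) and 0.84 (0.49 to 1.19, adjusted p = 0.015), and had 0.33 (−0.02 to 0.68, adjusted p = 0.30) under compound 6. Without day 2 of DMSO neither call was made, nor without day 2 of compound 4 or day 1 of compound 5 for that compound (0 called). Of the 14 subunits of the cytosolic TRiC chaperonin and of prefoldin, which fold actin and tubulin, 0 changed under any compound, with medians of 0.07, 0.12 and −0.03. PFDN4 was the highest under compounds 4 and 6 (0.37 and 0.41) and PFDN2 under compound 5 (0.37). The lowest were CCT2 (−0.12), PFDN6 (−0.15) and PFDN1 (−0.12). The intervals of PFDN4 were wide, from −0.51 to 1.24 under compound 4 and from −0.47 to 1.28 under compound 6. It differed by 0.83 between the days (adjusted p = 0.023 in edgeR with the block).

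Among 16 other mitochondrial chaperones and proteases, 0 changed under compounds 4 and 6 and 1 rose under compound 5. It was GRPEL2, a nucleotide exchange factor of mitochondrial HSP70, with 0.66 (0.32 to 0.99, adjusted p = 0.031). HSPA9, the mitochondrial HSP70 itself, had 0.22, 0.42 and 0.36, and TRAP1, the mitochondrial HSP90, −0.04, 0.03 and −0.05, none past the threshold. LONP1, a matrix protease, was the highest under compound 4 (0.38), and the lowest were SPG7 (−0.24), HSCB (−0.40) and PMPCA (−0.29). GRPEL2 did not pass without day 1 or day 2 of DMSO or day 1 of compound 5 (0 called). Of 5 heat shock factors and regulators, 0 changed. HSF1 had 59.7 and 51.8 CPM with DMSO and log2-fold changes of 0.14, 0.34 (0.08 to 0.59, adjusted p = 0.098) and 0.02, and HSF2 had −0.09, 0.19 and −0.11. HSF4 had 0.78, 0.03 and 0.70, and HSBP1 and HSBP1L1 took the lowest values, between −0.12 and −0.34.

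Lists for 2 other protective pathways, also chosen with earlier results known, were set beside the heat shock genes. The chaperones of the endoplasmic reticulum serve secreted proteins and answer to the unfolded protein response. The list of this compartment also holds genes that are not chaperones, such as XBP1, a transcription factor, and HERPUD1, of protein degradation. Of its 20 tested genes, 2 rose and 2 fell under compound 4 (9.51% of all genes called). There were 4 that rose under compound 5 (8.30%) and 0 that changed under compound 6 (0.575%). The medians were −0.17, 0.12 and −0.24. DNAJB9, an HSP40 of this compartment, rose by 0.79 and 1.58 (adjusted p = 0.018 and 0.0019). DNAJC10 rose under compound 4 (0.55), where CALR and XBP1 fell by 0.57 and 0.48. HERPUD1 (1.31), CANX (0.40) and HYOU1 (0.40, adjusted p = 0.0498) rose under compound 5. HSPA5, the central HSP70 of this compartment, had −0.10, 0.39 (adjusted p = 0.083) and −0.22, and CRELD2 was the lowest under compounds 4 and 6 (−0.71 and −0.57) and DNAJB11 under compound 5 (−0.34), none of them past the threshold. The count under compound 4 was 0 without day 1 or day 2 of DMSO or day 2 of compound 4, and 7 without either library of compound 5. That under compound 5 was 1 without either DMSO library and 2 without its own day 1 or either library of compound 6.

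The targets of NRF2, the transcription factor of the oxidative stress response, were read in the same way. Of 19 tested, 12 rose under compound 4, 9 rose under compound 5 and 3 rose under compound 6, with medians of 0.65, 0.30 and 0.29, beside 9.51%, 8.30% and 0.575% of all genes called in either direction. SLC7A11, the cystine transporter, rose by 1.14, 1.70 and 1.67, and GCLM, of glutathione synthesis, by 1.10 and 1.21 under compounds 4 and 5. OSGIN1 (1.19 and 1.69), SRXN1 (1.12 and 1.30), TXNRD1 (0.98 and 1.19), GCLC (0.97 and 1.21) and AKR1C1 (0.88 and 0.84) rose under compounds 4 and 5, AKR1B10 (1.17, 1.05 and 0.70) and ABCC2 (0.92, 0.96 and 0.82) under all of them. HMOX1 (0.65), FTL (0.44) and FTH1 (0.36) rose past the threshold under compound 4. None of them differed past the threshold between compound 4 and compounds 5 and 6, where HMOX1 had log2 differences of 0.54 (adjusted p = 0.13) and 0.48 (adjusted p = 0.50). PRDX1 was the lowest under compound 6 (−0.25). Without day 2 of DMSO the counts of calls in either direction were 1, 0 and 0, and without day 1 of DMSO 5, 3 and 0. They were 4 under compound 4 without its day 2, 3 under compound 5 without its day 1, and under compound 6 1 and 0 without its day 1 and day 2 and 7 without either library of compound 5. No test compared these lists with the heat shock genes.

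**Figure D5:**
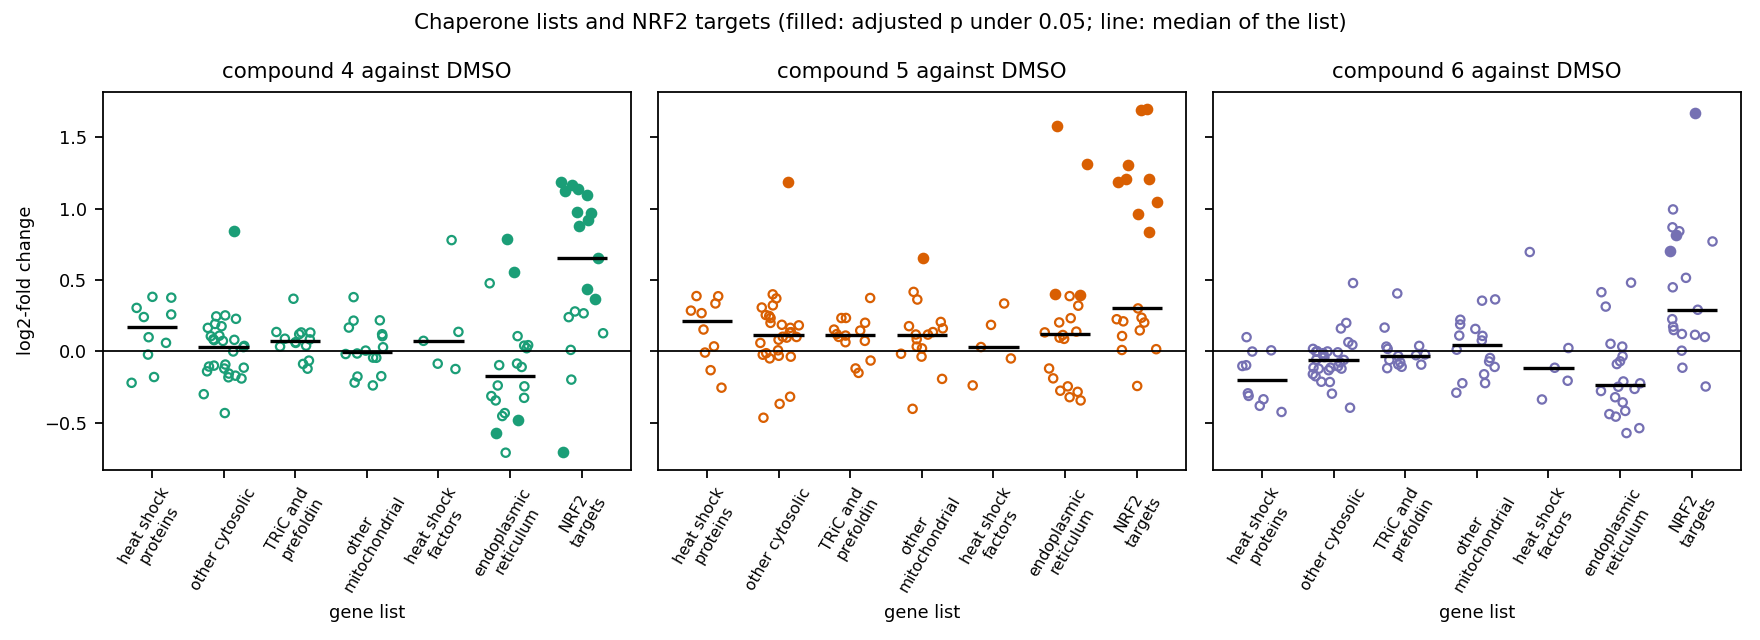
Log2-fold change against DMSO (vertical axis) of each tested gene in the 10 heat shock genes and 6 other lists, for compounds 4, 5 and 6. Filled circles passed an adjusted p of 0.05, open circles did not, and the black line is the median of a list. All 10 heat shock genes are open circles, at or under 0.39, while 12 NRF2 targets under compound 4 and 9 under compound 5 are filled above 0.

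The tested genes most like HSPA8 across the 8 libraries, by Pearson correlation of log2 CPM, were SPRY1 and DTX2P1 (both 0.98) and EIF3I, GFOD2 and FHIP1B (all 0.97). For HSPD1 they were CCT8 (0.99), which encodes a TRiC subunit, RNF149 and ADAT3 (both 0.97), and CCL15-CCL14 and CCL15 (both 0.96), which overlap and cannot be counted apart with certainty. These were the highest correlations with any other tested gene, over libraries that share groups. Among them DTX2P1 and ADAT3 had the lowest means, 1.15 and 6.83 CPM. Among the heat shock genes, HSPA8 had correlations of 0.91 with HSPH1, 0.88 with BAG3 and 0.86 with DNAJB1, and of −0.07 with HSPB1 and −0.40 with HSPE1.

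Reads that could belong to related genes limit some of these values. Between 0% (BAG3) and 74.5% (HSPA1B) of the 30-base words of each gene also occurred in other genes of GENCODE 29, with 22.2% for HSPA8, 26.5% for HSP90AA1 and 26.4% for HSPD1. Pseudogenes and readthrough genes named for a heat shock gene held at most 1.22% of the summed count, for HSPE1. HSPD1 and HSPE1 overlap on opposite strands, as do DNAJB1 and TECR, and the strand setting of the counting is not given in the sources used here.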

How the data were processed

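Directional mRNA libraries from 8 samples were sequenced as paired-end reads. The authors quantified the reads with Salmon 1.5.0 against a GENCODE 38 index and deposited estimated counts per gene, summarized with tximeta, as whole numbers without normalization. Gene positions and transcripts were taken from GENCODE 29, and promoter windows from RefSeq, both on GRCh38.

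The whole table was fitted with edgeR 4.0.16 in R 4.3.3, with TMM scaling. The filterByExpr function (minimum count 10) left 13400 genes. A single quasi-likelihood fit held all 8 samples, and Benjamini-Hochberg adjustment ran over every tested gene, with a threshold of 0.05. Intervals of 95% come from the same fit. Log2 CPM used a prior count of 0.5. In comparisons of 2 against 2 samples no permutation test can pass the threshold, so none was run. The fit was tested on simulated data before use. Promoter matches and the 30-base words that genes share were found with Python 3.11.15 and Biopython 1.88, and plots were drawn with matplotlib 3.10.9.

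The 10 genes and the gene lists were chosen with earlier results of these data known. Named are all 10 genes, from each list the highest and lowest tested gene under each compound and those past the threshold, HSF1, HSF2, HSPA5, HSP90AB1, HSPA9 and TRAP1, and the 5 tested genes most correlated with HSPA8 and with HSPD1. The day in the labels is where the pairing of the samples comes from. Across the tested genes, the differences between days of 2 groups correlated between −0.14 and 0.17. The alternatives were DESeq2 1.42.0, the day as a replicate block, a fit of the 4 samples compared, other scaling and filters, the sum of HSPA1A and HSPA1B, added pseudogene counts, and leaving out each library. The comparison of the days, the values within each day and DESeq2 with the block were added after the data were seen. The result of 1 gene of a list is not reported here. Columns of the authors' own comparisons were not used.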

Additional observations from a re-analysis of the deposited data

How the results depend on the processing

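The number of the 10 heat shock genes called changed with the test and the filter. In the edgeR fits that left out 1 library, 1 group held only 1 library. The share of all genes called there is not given, so calls of the heat shock genes there are not read as a result. With the replicate block, that is the day, edgeR called 2 genes under compound 4 and 2 under compound 5, and it changed no other count of these 10 genes. DESeq2 called 1 and 1. DESeq2 with the block called 2 under compound 4, 2 under compound 5, 1 in each comparison of compound 6 with compounds 4 and 5, and 4 between the days. Without a filter edgeR called 2 under compound 4, 1 under compound 5, 2 under compound 6, 1 between compounds 4 and 6, 3 for compound 6 against compound 5 and 4 for the days. In the gene lists, the replicate block moved the calls from 1 to 3 in the list of other cytosolic chaperones, which holds HSPA13, under compound 5. It moved them from 0 to 1 and from 1 to 3 of the other mitochondrial genes under compounds 4 and 5. DESeq2 called 2 of these mitochondrial genes under compound 5. Under compound 6 DESeq2 called 4 genes of the endoplasmic reticulum list in place of 0, and 8 NRF2 targets in place of 3. Of all genes it called 4.08% there, in place of 0.575% with edgeR. The NRF2 count was 1 with DESeq2 size factors in edgeR. The cause was not tested. Among single genes, these log2-fold changes changed sign with a setting. HSPD1 under compound 6 was −0.0063 with DESeq2, −0.0128 in a fit of the 4 samples compared, −0.0063 with DESeq2 size factors, −0.0064 with upper-quartile factors, −0.0059 without a filter, −0.0016 with at least 10 counts in every sample and −0.0065 with DESeq2 and the block. HSPH1 under compound 6 was 0.0095 with the edgeR block, and with upper-quartile factors HSPA1B under compound 5 was −0.06 and HSPE1 between compounds 6 and 5 was 0.0252. With 1 library left out, HSPA8 ranged from 0.22 to 0.56 under compounds 4 and 5, without a change of sign. The log2-fold changes that changed sign under compound 6 ranged from −0.25 to 0.0280 for BAG3, −0.28 to 0.0594 for DNAJB1, −0.61 to 0.10 for HSPA1A, −0.0691 to 0.27 for HSPA8, −0.0382 to 0.0405 for HSPD1, −0.21 to 0.23 for HSPH1. Those under compound 4 ranged from −0.40 to 0.0692 for HSP90AA1, −0.0069 to 0.70 for HSPA1A, −0.15 to 0.30 for HSPA1B, −0.32 to 0.22 for HSPB1. Those under compound 5 ranged from −0.28 to 0.24 for HSP90AA1, −0.18 to 0.66 for HSPA1A, −0.40 to 0.35 for HSPA1B, −0.32 to 0.0158 for HSPB1. Those between compounds 6 and 5 ranged from −0.70 to 0.0616 for HSPA1B, −0.12 to 0.0040 for HSPE1. Those between the days ranged from −0.0361 to 0.0200 for HSPD1, −0.15 to 0.0157 for HSPE1. Those between compounds 4 and 6 ranged from −0.11 to 0.27 for HSPE1. The coefficient of variation between replicates was 0.122 over all genes with 2 libraries per group, and the counts of BAG3, the lowest of the 10 genes, ran from 202 to 569 per library.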
